A study of Mus musculus with 2 samples.

Results

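The PI3K, AKT, mTOR and FOXO axis was followed through 8 genes, Pik3ca, Pik3cb, Akt1, Akt2, Mtor, Mlst8, Foxo1 and Foxo3, in haematopoietic stem and progenitor cells of mice that had or lacked the transcription factor NRF2, a driver of antioxidant genes. A gene was taken where the platform annotation gave a probe set exactly 1 gene symbol and that symbol was one of the 8. All 8 were found, on 9 probe sets, among 19938 genes so named. Akt2 had 2 probe sets, which were averaged, and the other genes had 1 each.

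The cells were bone marrow KSL cells, a lineage-negative population sorted for c-Kit and Sca-1. One pool came from Nrf2 knockout (Nrf2-/-) mice and the other from wild-type (Nrf2+/+) mice, all healthy C57BL/6J animals aged 8 to 10 weeks with no treatment recorded in the labels. Marrow of 5 mice per genotype was pooled before the sort, and 1 RNA sample per genotype was amplified and hybridised to 1 Affymetrix Mouse Gene ST 1.0 array. The title question concerned the part NRF2 plays in stem cell survival.

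Every gene therefore had 1 knockout and 1 wild-type value, in log2 intensity. There was no replicate, no test and no p-value, and precision was limited by the number of arrays. A difference is the log2 value of the knockout pool less that of the wild-type pool, and one of at least 1.5-fold, 0.585 on the log2 scale, was counted as a call. Calls were read against the 9970 genes past a level filter, the genes whose mean over both arrays was at or above the median gene, 6.57. The disagreement between the probe sets of 515 genes that had 2 each corresponds to a probe-set SD of 0.31 per difference, or 0.17 from the median disagreement. Statements below that name the probe-set SD use 0.31, the larger value. The disagreement covers probe behaviour alone, and the variation among animals, sorts or amplifications is unknown. In bulk RNA, fewer cells of a type and less RNA per cell cannot be told apart.

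As background, growth factor and cytokine receptors such as KIT activate class I PI3K, which makes a membrane lipid that recruits AKT. Active AKT releases mTOR complex 1 from inhibition, favouring protein synthesis and growth, and phosphorylates FOXO factors, which then leave the nucleus. In mouse haematopoietic stem cells FOXO factors are known for maintaining quiescence and resistance to oxidative stress, and sustained AKT or mTOR activity is known to exhaust the stem cell pool. Much of this control acts through phosphorylation, which an RNA array does not measure.

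The targeted gene Nfe2l2, which encodes NRF2, stood at 9.07 in Nrf2-/- cells, against 9.16 in Nrf2+/+ cells, differing by -0.09. Where in Nfe2l2 the deletion lies is not stated in the labels, so this value cannot check the genotype if the probes lie elsewhere. The 2 arrays had nearly the same distribution, with medians of 6.41 each.

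Kit, Cd34 and Flt3, markers of stem cells and multipotent progenitors, lay between 10.94 and 11.43 in Nrf2-/- cells and between 10.84 and 11.29 in Nrf2+/+ cells. The other stem cell markers past the filter were lower: Mecom, a transcription factor of long-term stem cells, stood at 7.54 in Nrf2-/- cells, against 7.99 in Nrf2+/+ cells, differing by -0.45, while Procr and Hlf differed by -0.09 and -0.03. With its brighter probe set Mecom was past 1.5-fold, at -0.59. Below the filter, Slamf1 stood at 6.43 in Nrf2-/- cells and 5.73 in Nrf2+/+ cells, and Tek at 6.03 in Nrf2-/- cells and 6.58 in Nrf2+/+ cells. Averaged over these opposite differences, the 8 stem cell markers measured stood at 9.02 in Nrf2-/- cells and 9.01 in Nrf2+/+ cells. Ly6a, which encodes Sca-1, was not analysed here. Lineage markers averaged 5.72 in Nrf2-/- cells and 5.82 in Nrf2+/+ cells over 7 genes, of which Itgam, at 7.57 in Nrf2-/- cells and 8.52 in Nrf2+/+ cells, and Cd3e, at 6.70 in Nrf2-/- cells and 6.82 in Nrf2+/+ cells, passed the filter. The 12 neutrophil markers averaged 7.74 in the knockout pool, from 5.36 to 11.30, and 9.17 in the wild-type pool, from 4.90 to 12.25. The 10 of them past the filter were all lower, by -2.66 to -0.95: Retnlg at -2.66, Lcn2 at -2.10, Chil3 at -1.78, Ltf at -1.69, Camp at -1.64, Cxcr2 at -1.63, S100a8 at -1.45, Ngp at -0.99 and S100a9 at -0.95, with Mmp8 4.01-fold lower. Retnlg, Mmp8 and Cxcr2, at 5.36, 5.74 and 6.19 in Nrf2-/- cells, passed the filter only through the wild-type pool. These genes could only be lower. Ly6g was below the filter at 5.41 in Nrf2-/- cells and 4.90 in Nrf2+/+ cells. The 8 monocyte and macrophage markers measured averaged 6.67 in Nrf2-/- cells and 7.38 in Nrf2+/+ cells, with 4 of the 5 past the filter lower. Ms4a6c was 2.01-fold lower, Ccl6 differed by -1.52, Fn1 by -0.80 and Csf1r by -0.67, while Cd68 was higher by 0.63. Ccl6 and Fn1, at 6.51 and 6.41 in Nrf2-/- cells, likewise passed the filter only through the wild-type pool. No marker was listed at 0. The part of these cells in the lower values of Akt1, Pik3cb, Csf1r, the leukocyte PI3K subunits and the FOXO targets was not tested.

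The 8 axis genes were split evenly between higher and lower in the knockout pool, and the genes furthest from 0 lay on opposite sides of it. Mlst8, a subunit of both mTOR complexes, was 1.77-fold higher, and the kinase gene Akt1 was 1.56-fold lower. These 2 of 8 genes were past 1.5-fold, 1 in each direction, whereas 6.64% of all genes past the filter were, 2.34% higher and 4.3% lower. None of the 8 reached 2-fold, against 1.17% of all genes past the filter. The 4 higher and 4 lower genes had a median difference of -0.02, which is also the median over all genes past the filter. A count of 2 among 8 rests on single values of single genes.

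**Figure D1:**
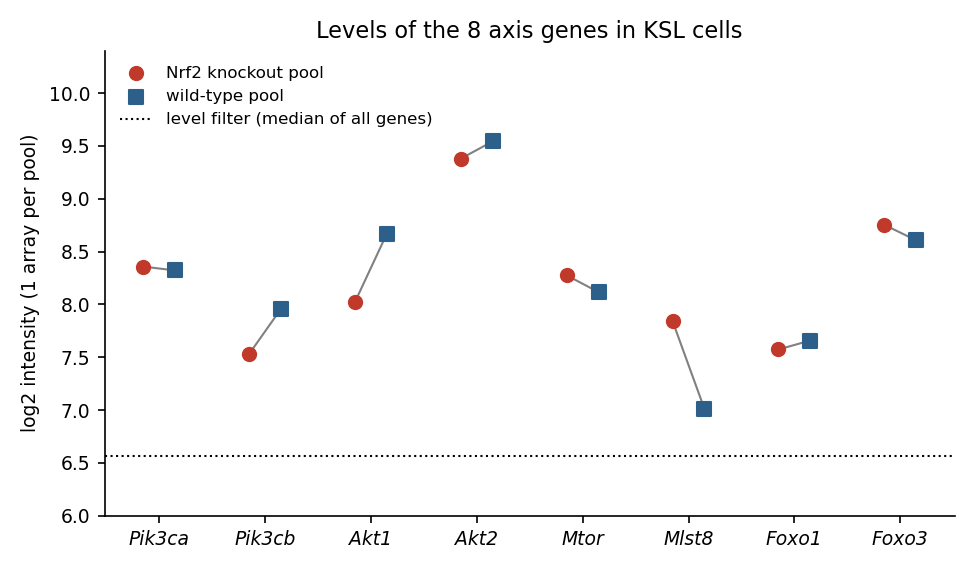
Log2 intensity (vertical axis) of each of the 8 genes in the Nrf2 knockout pool (circles) and the wild-type pool (squares), 1 array each, with the level filter of 6.57 as a dotted line; probe sets of different genes are not on a common scale, so only the pair within a gene can be compared. Akt1 is lower in the knockout pool (8.02 against 8.67), Mlst8 is higher (7.84 against 7.01), and every value lies above the filter.

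The kinases at the head of the axis were level or lower. Pik3ca encodes the alpha catalytic subunit of PI3K, and its log2 intensity was 8.36 in Nrf2-/- cells, against 8.32 in Nrf2+/+ cells, differing by 0.04. Pik3cb encodes the beta subunit, which stood at 7.53 in Nrf2-/- cells, against 7.96 in Nrf2+/+ cells, differing by -0.43. The Pik3cb difference was 1.35 times the probe-set SD, it did not reach 1.5-fold, and 8.77% of genes past the filter were at least as far below 0. The gap between these subunits, -0.46 as Pik3cb minus Pik3ca, was 1.04 times the SD that probe-set error gives to a gap between 2 genes.

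AKT1 and AKT2 are closely related kinases with overlapping substrates, and both are known to be expressed in haematopoietic cells. Akt1 stood at 8.02 in Nrf2-/- cells, against 8.67 in Nrf2+/+ cells, differing by -0.64, which is 64.0% of its wild-type level. This was 2.04 times the probe-set SD, and 3.44% of genes past the filter, 343 in number, lay at least as low. Akt2 averaged 9.38 in Nrf2-/- cells, against 9.54 in Nrf2+/+ cells, differing by -0.16.

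Both Akt2 probe sets were slightly lower in the knockout pool. One stood at 9.94 in Nrf2-/- cells, against 10.06 in Nrf2+/+ cells, differing by -0.12. The other stood at 8.82 in Nrf2-/- cells, against 9.03 in Nrf2+/+ cells, differing by -0.21. The difference of Akt1 minus that of Akt2 was -0.48, a gap whose size was about that of the probe-set SD for 2 genes, 0.45.

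MTOR is the kinase at the core of both mTOR complexes, and MLST8 is a small WD-repeat protein that binds its kinase domain. Mlst8 stood at 7.84 in Nrf2-/- cells, against 7.01 in Nrf2+/+ cells, differing by 0.83. This was 2.63 times the probe-set SD, and 0.812% of genes past the filter, 81 in number, lay at least as high. Among the 3253 genes whose mean level was within 0.5 of that of Mlst8, 1.17% were. Mtor itself was close to level, at 8.27 in Nrf2-/- cells, against 8.12 in Nrf2+/+ cells, differing by 0.16.

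FOXO1 and FOXO3 are the FOXO factors best known in blood stem cells, with FOXO3 needed for long-term stem cell maintenance in mice. Foxo1 stood at 7.57 in Nrf2-/- cells, against 7.66 in Nrf2+/+ cells, differing by -0.08. Foxo3 stood at 8.75 in Nrf2-/- cells, against 8.61 in Nrf2+/+ cells, differing by 0.15. These differences had opposite signs and were each under the probe-set SD. The related Foxo4, at 5.69 in Nrf2-/- cells and 5.78 in Nrf2+/+ cells, and Foxo6, at 6.30 in Nrf2-/- cells and 6.16 in Nrf2+/+ cells, were below the filter.

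Of the 8 differences, 5 were smaller than 0.2 in size, between -0.16 and 0.16, and so within the probe-set SD of 0.31. Pik3cb, Akt1 and Mlst8 were the remaining ones. The 8 genes kept their signs under median centring, quantile normalization, loess and the choice of the brightest probe set. Akt1 ranged from -0.65 to -0.62 under these settings and Mlst8 from 0.82 to 0.85.

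**Figure D2:**
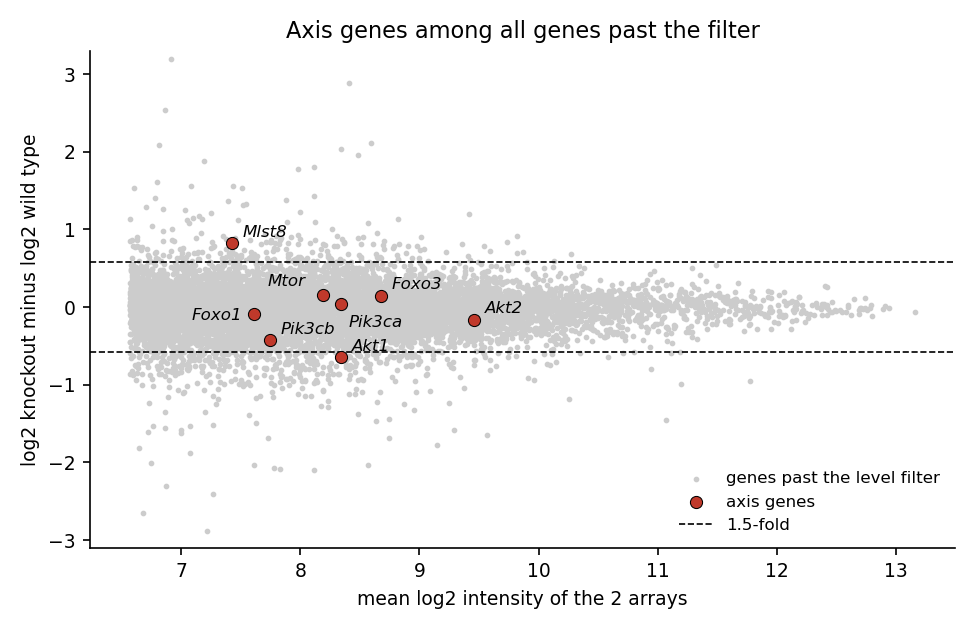
Difference in log2 intensity, knockout minus wild type (vertical axis), against the mean log2 intensity of the 2 arrays (horizontal axis) for the 9970 genes past the level filter (grey) and the 8 axis genes (red), with dashed lines at 1.5-fold. Mlst8 at 0.83 lies above the upper line, Akt1 at -0.64 lies just below the lower one, and the other 6 lie inside the main cloud.

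**Figure D3:**
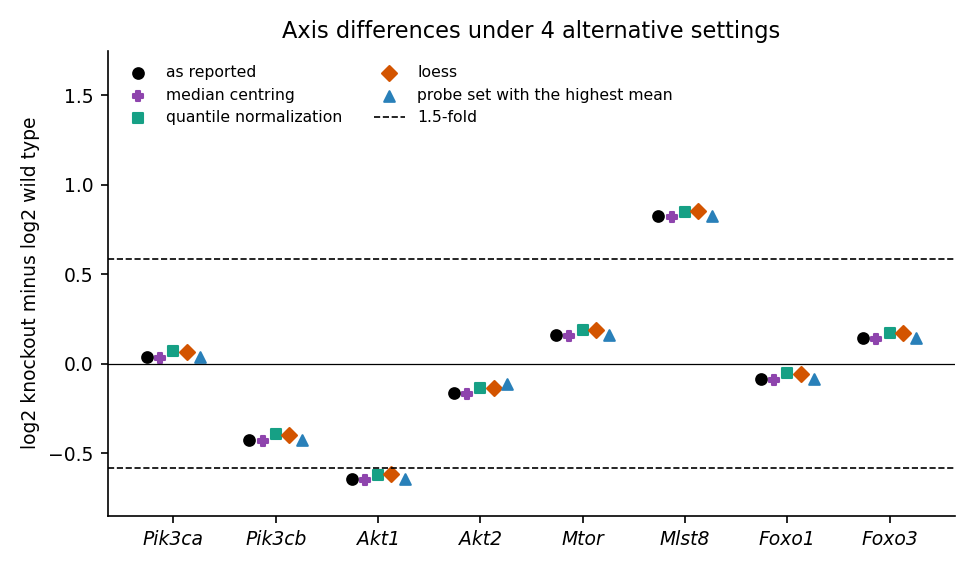
Difference in log2 intensity, knockout minus wild type (vertical axis), of each of the 8 genes as reported and under 4 alternative settings (symbols), with dashed lines at 1.5-fold. No gene crosses 0 or a dashed line under any of these settings; Akt1 stays nearest to a line, between -0.65 and -0.62.

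The sequences before the transcription starts of the 3 genes with the largest differences are shown because the deleted factor binds DNA and FOXO factors are part of the axis. They are the 250 bases upstream of a RefSeq start on GRCm38.p6, read 5′ to 3′ on the gene's strand. They were searched on both strands for the core of the antioxidant response element to which NRF2 binds, spelled TGACNNNGC or TGAGNNNGC, and for the FOXO motif TGTTTAC. Capitals mark a match, and no matches overlapped.

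Akt1, chr12:112674885-112675134, minus strand: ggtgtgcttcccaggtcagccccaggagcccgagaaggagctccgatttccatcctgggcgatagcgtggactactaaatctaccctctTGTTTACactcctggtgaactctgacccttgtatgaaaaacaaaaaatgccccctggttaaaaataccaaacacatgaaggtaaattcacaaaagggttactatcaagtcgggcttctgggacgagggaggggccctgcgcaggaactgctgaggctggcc
Mlst8, chr17:24479079-24479328, minus strand: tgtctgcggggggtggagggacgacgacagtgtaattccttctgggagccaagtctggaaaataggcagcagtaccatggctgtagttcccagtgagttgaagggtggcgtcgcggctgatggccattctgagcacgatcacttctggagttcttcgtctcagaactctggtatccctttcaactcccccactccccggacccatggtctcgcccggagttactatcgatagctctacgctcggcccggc
Pik3cb, chr9:99140212-99140461, minus strand: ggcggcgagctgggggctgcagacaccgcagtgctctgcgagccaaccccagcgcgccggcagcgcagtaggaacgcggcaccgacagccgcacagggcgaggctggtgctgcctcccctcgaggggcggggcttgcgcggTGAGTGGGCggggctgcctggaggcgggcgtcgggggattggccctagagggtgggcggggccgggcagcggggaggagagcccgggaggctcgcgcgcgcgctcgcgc

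The Akt1 window held 1 FOXO match, 161 to 155 bases before the start, and no antioxidant element core. A second annotated Akt1 start, with its window at chr12:112674277-112674526, held neither. The Mlst8 window held neither motif. The Pik3cb window held 1 antioxidant element core, 109 to 101 bases before the start, and so did 1 of the 4 Akt2 windows. Of the 12 windows of the 8 genes, 2 held the antioxidant core, in 2 genes, and 1 held the FOXO motif. Among 32851 RefSeq windows of the same length, 23.0% held the antioxidant core in either spelling and 3.17% the FOXO motif. A match describes the sequence and is not a measured binding site.

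Genes around the axis were grouped by role in 14 lists of 138 genes in all, the 8 axis genes included. Of these, 130 were measured and 114 passed the level filter. Leaving out the 8 axis genes, 106 passed, and 3 of them were past 1.5-fold, 2.83% against 6.64% of all genes past the filter. All 3 were lower in the knockout pool: Bnip3, Sod2 and Csf1r. The 106 genes had a median difference of -0.07, with 45 higher and 60 lower. Over all genes past the filter, 46.5% were higher and 52.9% lower by any amount.

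**Figure D4:**
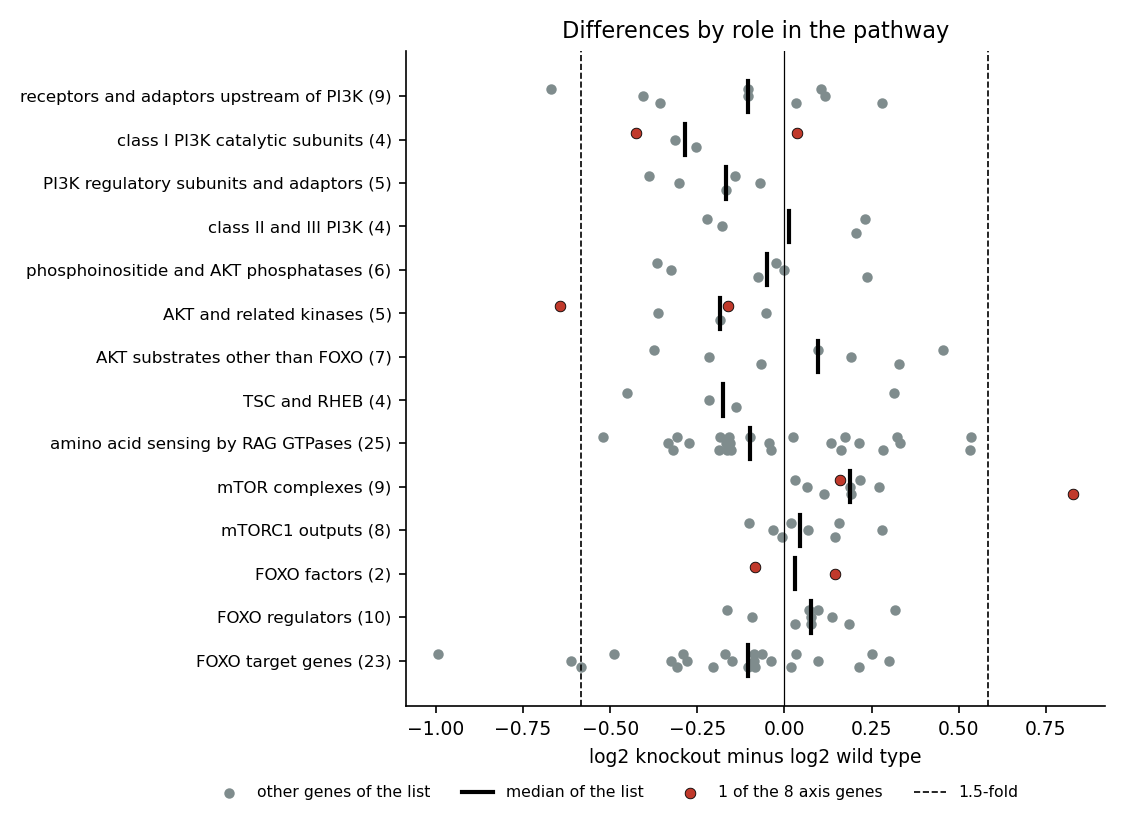
Difference in log2 intensity, knockout minus wild type (horizontal axis), of each gene past the level filter, grouped by role from receptors (top) to FOXO target genes (bottom), with the number of genes in brackets, the 8 axis genes in red, list medians as black bars and 1.5-fold as dashed lines. All 9 mTOR complex genes lie right of 0, with a median of 0.19, and all 5 AKT-related kinases lie left of it, with a median of -0.18. Over all genes past the filter, 46.5% lie right of 0 and 52.9% left.

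Receptors and adaptors upstream of PI3K had a median of -0.10 over 9 genes, with 4 higher and 5 lower. Csf1r, the receptor for macrophage colony-stimulating factor, stood at 7.02 in Nrf2-/- cells, against 7.68 in Nrf2+/+ cells, differing by -0.67. The docking proteins Gab1 and Gab2, which bring PI3K to receptors, differed by -0.41 and -0.36. Kit itself, whose product helps define the sorted cells, stood at 11.21 in Nrf2-/- cells and 10.93 in Nrf2+/+ cells.

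The other class I PI3K subunits past the filter were also lower, each by less than 1.5-fold. With Pik3ca and Pik3cb, the 4 class I catalytic subunits had a median of -0.28, 3 of them lower. Pik3cd and Pik3cg, the delta and gamma subunits typical of leukocytes, differed by -0.25 and -0.31. All 5 regulatory subunits and adaptors past the filter were lower, with a median of -0.17, against 52.9% lower among all genes past the filter. These included the adaptor Pik3ap1 at -0.39, the gamma-complex subunit Pik3r6 at -0.30 and the common subunit Pik3r1 at -0.17. Pik3r6, at 6.52 in Nrf2-/- cells, passed the filter only through the wild-type pool, so it could only be lower. Pik3r3, below the filter, was 5.57 in Nrf2-/- cells and 5.30 in Nrf2+/+ cells. Class II and III enzymes split evenly, 2 higher and 2 lower, with Pik3c2b at 0.23, Pik3r4 at 0.21 and Pik3c3 at -0.22. The other lower gene, Pik3c2a, at 6.54 in Nrf2-/- cells, passed the filter only through the wild-type pool, so it could only be lower.

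Phosphatases that oppose the pathway had a median of -0.05 over 6 genes. Inpp5k differed by -0.37, Phlpp1, which dephosphorylates AKT, by -0.32, and Inppl1 by 0.24. Inpp5d, a lipid phosphatase typical of blood cells, differed by -0.02 as deposited and by 0.01 after quantile normalization. Inpp4a had the same value in both pools. The 5 AKT-related kinases, Akt1 and Akt2 among them, were all lower, against 52.9% of all genes past the filter. Their median was -0.18. Beside Akt1, Sgk3 differed by -0.36 and Pdpk1, which phosphorylates AKT, by -0.18.

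Substrates of AKT other than FOXO went both ways, 4 higher and 3 lower, with a median of 0.10. The pro-apoptotic Bad stood at 7.62 in Nrf2-/- cells, against 7.17 in Nrf2+/+ cells, differing by 0.45. The glycogen synthase kinases had opposite signs, with Gsk3a at 0.33 and Gsk3b at -0.37. The TSC complex restrains mTOR complex 1 by switching off the GTPase RHEB, and 3 of the 4 TSC and RHEB genes past the filter were lower. Tsc1 stood at 8.00 in Nrf2-/- cells, against 8.45 in Nrf2+/+ cells, differing by -0.45, Tsc2 differed by -0.22 and Rhebl1 by 0.31.

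All 9 genes of the mTOR complexes past the filter were higher in the knockout pool, against 46.5% of all genes past the filter. Their median was 0.19. Leaving out Mtor and Mlst8, the other 7 lay between 0.03 and 0.27, each within the probe-set SD of 0.31. Not all of them lay within the 0.17 from the median disagreement. Tti1, needed for assembling the complexes, differed by 0.27 and Mapkap1, a subunit of complex 2, by 0.22. The listed genes Prr5l and Telo2, both below the filter, were lower: Prr5l stood at 4.75 in Nrf2-/- cells and 4.97 in Nrf2+/+ cells, and Telo2 at 6.42 in Nrf2-/- cells and 6.68 in Nrf2+/+ cells. The 9 genes were also higher under each of the 3 scalings.

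Amino acid sensing genes promote or restrain the recruitment of mTOR complex 1 to the lysosome. Their median, taken over both roles together, was -0.10 over 25 genes, with 10 higher and 15 lower. None reached 1.5-fold with probe sets averaged, and with the brightest probe set of each gene Lamtor1 did, at 1.12. Seh1l stood at 9.14 in Nrf2-/- cells, against 8.61 in Nrf2+/+ cells, differing by 0.53. Kptn and Itfg2, partners in one lysosomal complex, differed in opposite directions, by 0.54 and -0.52. Kptn, Lamtor1 and Sesn2, at 6.52, 6.55 and 6.55 in Nrf2+/+ cells, passed the filter only through the knockout pool. With probe sets averaged, these genes could only be higher. Rragb and Nprl3, at 6.54 and 6.52 in Nrf2-/- cells, passed only through the wild-type pool and could only be lower. Outputs of mTOR complex 1 were close to level, with a median of 0.04 over 8 genes. Rps6kb2, an S6 kinase gene, differed by 0.28, and the translation repressors Eif4ebp2 and Eif4ebp1 by 0.16 and 0.15. Rps6kb1 was not analysed here.

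FOXO regulators had a median of 0.07 over 10 genes, 8 of them higher, against 46.5% of all genes past the filter. Ywhag and Ywhaq, of the adaptor family that holds phosphorylated FOXO in the cytoplasm, differed by 0.32 and 0.18, and the deubiquitinase Usp7 by -0.17. Genes known as FOXO targets had a median of -0.10 over 23 genes, with 6 higher and 17 lower, against 52.9% lower among all genes past the filter. Of these, 2 were past 1.5-fold, both lower, against 1 after quantile normalization and 3 after median centring. This is 8.7% of the 23 targets, with 6.64% of all genes past the filter called in either direction and 4.3% called lower, so the count lies near the background. Mitochondrial superoxide dismutase, Sod2, stood at 8.19 in Nrf2-/- cells, against 8.80 in Nrf2+/+ cells, differing by -0.61. Txnip, the thioredoxin-binding protein, stood at 10.51 in Nrf2-/- cells, against 11.09 in Nrf2+/+ cells, differing by -0.58.

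Bnip3, a mitochondrial protein of mitophagy, had the largest difference of the FOXO targets at -0.99, but its probe sets disagreed. One stood at 6.07 in Nrf2-/- cells, against 7.73 in Nrf2+/+ cells, differing by -1.66. The other stood at 7.65 in Nrf2-/- cells, against 7.98 in Nrf2+/+ cells, differing by -0.33, and with this brighter probe set Bnip3 was within 1.5-fold. Many of the listed targets, Sod2 and Bnip3 among them, are also known to be driven by other factors.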

How the data were processed

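Per the labels' protocols, a Qiagen RNeasy kit gave total RNA of 2 pools of sorted KSL cells, NuGEN Ovation kits amplified and labelled it, and Affymetrix arrays were used. Partek is named in the submitters' processing notes without version or role; how background, normalization and probe summary were handled is not given in the sources used here. Each probe set has 1 deposited log2 intensity on each array, with the base taken from the range of values. A shift of all genes could not be seen if the arrays had been quantile-normalized, and amplification can distort single genes. An array has no read depth.

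Of 28853 probe sets, 21789 had 1 gene symbol, 1621 several and 5443 none in the platform annotation. By Entrez ID, 21698 matched GRCm38.p6 and 0 symbols differed. Probe sets of a gene were averaged. No test was possible with 1 array per genotype; calls are differences of at least 1.5-fold among genes past the level filter. The members and lists were chosen with earlier results of these data known. Besides the 8 genes, the text names in each list the genes past 1.5-fold and up to 3 with the largest differences. Pik3r3, Pik3c2a, Prr5l, Telo2, Foxo4, Foxo6, Inpp4a, Inpp5d, Flt3, Procr, Hlf, Slamf1 and Tek were named after their values were seen. So were Lamtor1, Sesn2, Rragb, Nprl3, Slc38a9, Insr, Fasl and Ly6g. Scaling, filter, fold, summary and probe-set rule were varied. The procedure was tested on simulated data with larger shifts than those of the axis genes and less noise than the probe-set SD. That test checked the code and does not bear on the calls made here. Promoter sequences came from RefSeq (GRCm38.p6), where all 8 genes matched. Python 3.11.15, numpy 2.4.6, pandas 2.3.3 and statsmodels 0.14.6 (lowess, fraction 0.3) were used.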

Additional observations from a re-analysis of the deposited data

How the results depend on the processing

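The signs of all 8 axis genes, and the side of 1.5-fold on which each lay, were the same under median centring, quantile normalization, loess and the brightest probe set of each gene. At 2-fold, 0 genes of the axis were higher and 0 lower, and over all genes past the filter 41 were higher and 76 lower, in place of 233 and 429 at 1.5-fold. With the level filter at the 75th percentile, 8.07, the counts over all genes were 79 higher and 165 lower, and 0 axis genes were counted as higher, since Mlst8, at a mean of 7.43, was then left out. The median of class II and III PI3K genes was -0.16 with no level filter, against 0.01 as reported. Means in place of medians gave -0.016 for amino acid sensing genes and -0.17 for FOXO targets, against -0.10 each. The median of the axis lay between -0.03 and 0.04 over 7 alternatives and changed sign under 3 of them. Sod2 was within 1.5-fold at -0.58 under quantile normalization, and Txnip was past it at -0.59 under median centring. No paired analysis was possible because each genotype had 1 array. Precision is limited by 1 array per genotype.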

Other observations

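The RAG GTPase anchor gene Lamtor1 had probe sets that disagreed in direction, chosen here after their values were seen. One stood at 8.01 in Nrf2-/- cells, against 6.89 in Nrf2+/+ cells, differing by 1.12. The other stood at 5.75 in Nrf2-/- cells, against 6.21 in Nrf2+/+ cells, differing by -0.46. Their average, 0.33, was the value used for the gene. Slc38a9, a lysosomal arginine sensor, had probe sets at 0.55 and -0.64, which averaged to -0.04, and with the brighter one it was at 0.55. Insr, the insulin receptor gene, also had probe sets of opposite sign, at -0.29 and 0.08.

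For 734 of 28853 probe sets the deposited values of both arrays were identical to the last digit. Averaged over probe sets, 474 genes had identical values, 63 of them past the level filter. Among the listed genes these were Inpp4a, at 7.25 in both pools, and Fasl, at 5.03 in both.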
